A study of Mus musculus with 14 samples.

Results

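The 8 genes described here are markers or regulators of the formative and primed states of pluripotency: Otx2, Fgf5, Pou3f1, Zic2, Sox3, Sox4, Utf1 and Foxd3. They were taken by gene name from the deposited expression tables, where each of them has 1 gene identifier among 54446. The RNA came from E14 mouse embryonic stem (ES) cells grown without feeders in serum and LIF and treated with an mTOR inhibitor (mTORi). The paper's methods name INK128 or RapaLink-1, without stating which was used for the RNA. Such treatment puts ES cells into a dormant state used as a model of embryonic diapause. Wild-type (WT) cells were collected at 0, 24, 72 and 144 h, and cells labelled Tet1/2 double knockout (DKO) at 0, 24 and 72 h, with 2 libraries in each of the 7 groups. The DKO line was made from E14 by Cas9 cutting of Tet1 and Tet2 and single-cell sorting, so what sets a clone apart and what the deletion does cannot be told apart. DKO cells at 144 h were not analysed here.

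Pluripotency is held in a series of states. Naive cells resemble the preimplantation epiblast, formative cells have left that state and gained the competence to form germ layers and germ cells, and primed cells resemble the epiblast after implantation. OTX2 is a homeodomain factor that redirects OCT4 to new enhancers when cells leave the naive state, and FGF5 is a secreted ligand that serves as the classical marker of the postimplantation epiblast. TET1 and TET2 oxidize methylated cytosine in CpG dinucleotides, the first step of active DNA demethylation.

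Values are transcript abundances in TPM as deposited, which sum to the same total in every library and are therefore relative to the rest of the transcriptome. ERCC standards had also been added to RNA from a fixed number of cells, and most directions given for the members are set beside the spike-in normalized value (the same TPM times 1 factor per library). On that scale the WT factors fell to between 0.474 and 0.507 of the 0 h factor at 144 h, and the median of all genes moved by -0.83 on the log2 scale. The 2 DKO 24 h libraries had factors of 1.06 and 0.643 of the WT 0 h factor, the widest pair. Fold changes are on the log2(TPM + 1) scale, which understates the change of low genes, and were tested with limma over the 15878 genes whose mean reached 1 TPM. A gene was called at a Benjamini-Hochberg adjusted p below 0.05. Of the 8 genes, 7 passed this filter on low values. Fgf5, which did not, was fitted without the filter. In bulk samples fewer cells of a type and less RNA per cell cannot be told apart.

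The labels were checked first. Tet2 TPM in DKO cells was 0.211, 0.160 and 0.177 of the WT mean at 0, 24 and 72 h, every DKO library lay below every WT library, and the difference was called at each time. Tet1 TPM was 0.770, 0.702 and 0.808 of WT, with every DKO library below every WT library of its time, and was called at 24 h (adjusted p = 0.0229) but not at 0 h or 72 h (adjusted p = 0.0794 and 0.0681). Tet2 was called on the spike-in scale as well, and Tet1 was not, with a log2 difference of 0.11 at 72 h, of the opposite sign. A TPM per gene does not show which exons the reads came from. The 5 ES cell markers (Pou5f1, Sox2, Nanog, Zfp42 and Esrrb) summed to between 2016 and 2629 TPM over all 14 libraries. Most of that sum was Pou5f1 and Zfp42, and single markers moved within it. Mean Nanog was 333 TPM at WT 0 h and 184 at WT 72 h, and 276 and 156 at these times in DKO cells. Mean Sox2 was 240 TPM at WT 0 h and 375 at WT 144 h. Replicates correlated at r = 0.976 to 0.989 across genes, with the lowest value in the DKO 24 h pair.

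Promoter sequences are shown for the 5 members with an entry in the RefSeq promoter table (GRCm38.p6, the mm10 build of the files), because the CpG dinucleotide is the substrate of the TET pathway. Each run is the 250 bases before the start site on the gene's own strand, with CpG in capitals. Otx2 has 4 start sites in the table and the one farthest upstream is shown (chr14:48667645-48667894, minus strand). The others are Sox4 (chr13:28953700-28953949, minus strand), Utf1 (chr7:139943606-139943855, plus strand), Foxd3 (chr4:99656049-99656298, plus strand) and Fgf5 (chr5:98253934-98254183, plus strand).
Otx2: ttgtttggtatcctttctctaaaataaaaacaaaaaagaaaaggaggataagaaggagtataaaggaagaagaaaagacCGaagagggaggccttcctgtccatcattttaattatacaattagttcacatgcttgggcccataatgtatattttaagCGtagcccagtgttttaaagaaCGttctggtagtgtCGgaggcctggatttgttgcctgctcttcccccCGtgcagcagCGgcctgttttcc
Sox4: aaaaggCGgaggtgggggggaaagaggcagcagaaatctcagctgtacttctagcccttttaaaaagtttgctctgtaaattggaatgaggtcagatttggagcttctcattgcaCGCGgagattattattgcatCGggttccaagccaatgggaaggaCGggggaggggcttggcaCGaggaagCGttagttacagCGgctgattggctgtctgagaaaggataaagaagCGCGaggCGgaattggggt
Utf1: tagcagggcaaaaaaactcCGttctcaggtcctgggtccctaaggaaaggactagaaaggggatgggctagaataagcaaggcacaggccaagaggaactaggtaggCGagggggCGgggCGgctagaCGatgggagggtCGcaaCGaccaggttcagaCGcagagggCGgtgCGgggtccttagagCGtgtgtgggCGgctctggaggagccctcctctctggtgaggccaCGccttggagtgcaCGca
Foxd3: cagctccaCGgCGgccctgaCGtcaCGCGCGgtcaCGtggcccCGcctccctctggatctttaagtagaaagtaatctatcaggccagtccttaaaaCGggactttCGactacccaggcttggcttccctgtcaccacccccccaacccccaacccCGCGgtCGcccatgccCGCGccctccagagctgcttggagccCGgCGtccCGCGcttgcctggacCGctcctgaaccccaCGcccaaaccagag
Fgf5: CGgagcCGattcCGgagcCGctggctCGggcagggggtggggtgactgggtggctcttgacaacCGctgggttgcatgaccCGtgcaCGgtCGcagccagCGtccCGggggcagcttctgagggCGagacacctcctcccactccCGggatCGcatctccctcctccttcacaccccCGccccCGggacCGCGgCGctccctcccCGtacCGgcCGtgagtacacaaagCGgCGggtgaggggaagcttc
These runs hold 6 CpG in Otx2, 11 in Sox4, 14 in Utf1, 21 in Foxd3 and 24 in Fgf5. Over the whole 300-base windows of the table, which end 50 bases after the start, the median promoter holds 7 CpG, and 87.1% of promoters hold fewer than that of Fgf5 (29) against 43.6% for this Otx2 start (6). The other 3 Otx2 starts hold 8, 16 and 11 CpG, so the start shown is the lowest of the 4.

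The 300-base windows were also searched on both strands for CACGTG, the E-box bound by TFE3 and related factors, and for ATGCAAAT, the octamer bound by POU factors. Of the 8 member windows, 1 held CACGTG, that of Foxd3, beside 7.15% of the 32851 promoters of this length. Its E-box begins at position -217 from the start site and is shown in capitals within 30 bases (chr4:99656070-99656099, plus strand).
Foxd3: gtcacgcgcggtCACGTGgccccgcctccc
None of the 8 windows held ATGCAAAT, which 1.74% of all promoters hold. No methylation or binding data were analysed here, so these are descriptions of the letters alone.

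**Figure D1:**
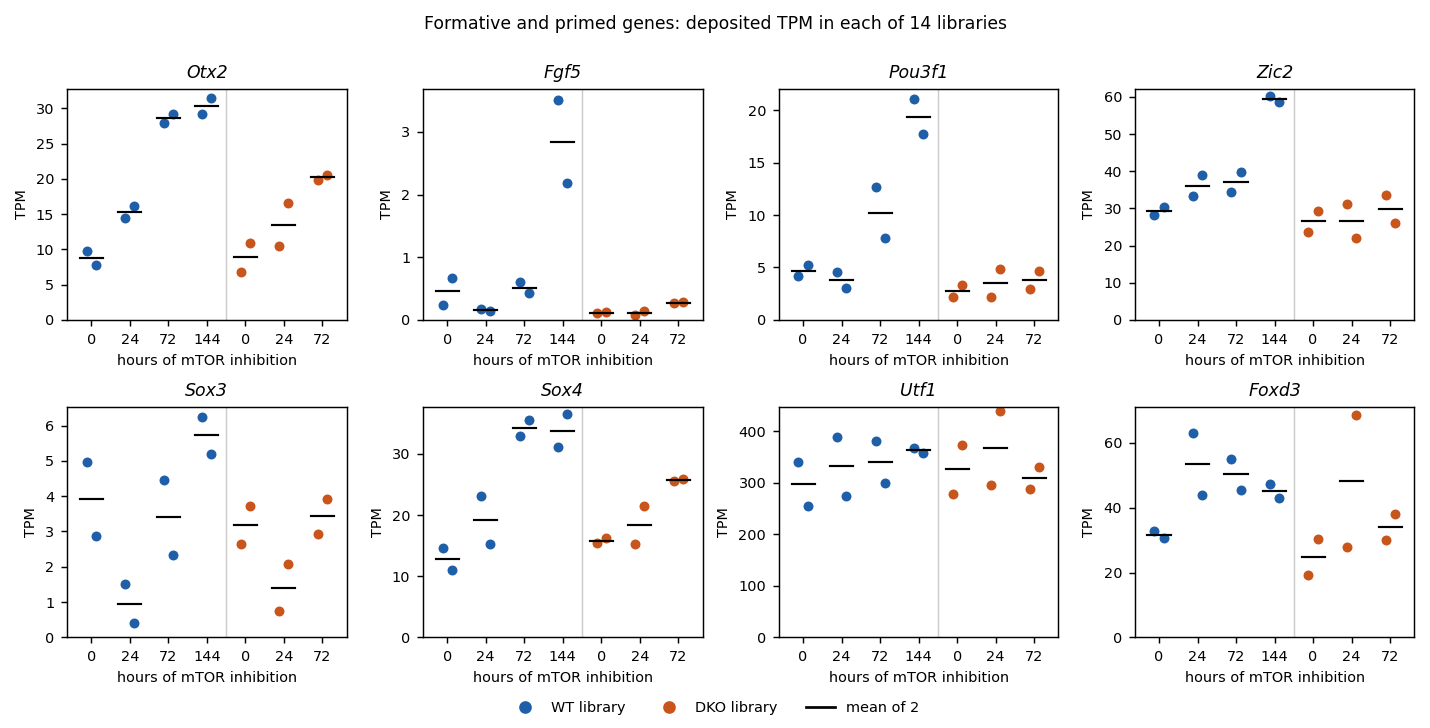
Deposited TPM (vertical axes, from 0) of the 8 genes in each of the 14 libraries, by hours of mTORi (horizontal axes), with WT libraries in blue, DKO libraries in orange and a bar at the mean of 2. Otx2 and Sox4 stand higher at 72 h than at 0 h in both genotypes, while Pou3f1 and Fgf5 reach their highest values, 21.1 and 3.51 TPM, in a WT library at 144 h.

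Otx2 (ENSMUSG00000021848.16, chr14:48657677-48673819, minus strand) rose at every WT time tested. WT libraries held 9.78 and 7.79 TPM before treatment, 14.5 and 16.1 after 24 h, 27.9 and 29.2 after 72 h and 29.2 and 31.5 after 144 h. Each treated WT library was above both 0 h libraries, and the 72 h and 144 h libraries overlapped. The log2 fold change against 0 h was 0.74 ± 0.22 (SE; adjusted p = 0.0261) at 24 h, 1.60 ± 0.22 (adjusted p = 0.000893) at 72 h and 1.69 ± 0.22 (adjusted p = 0.000616) at 144 h. The 24 h call was lost without WT 0 h replicate 2 (0.59, adjusted p = 0.145) and without either WT 24 h library (adjusted p = 0.0643 and 0.122). With spike-in normalization the rise was called at 72 h (1.24, adjusted p = 0.0174) and at 144 h (0.74, adjusted p = 0.0479), and at 24 h it was 0.41 (adjusted p = 0.396). The spike-in values were 43.6 to 46.1 at 72 h and 31.2 to 31.5 at 144 h, so on that scale 72 h was the highest WT time.

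In DKO cells Otx2 held 6.84 and 10.98 TPM before treatment, 10.5 and 16.6 after 24 h and 19.9 and 20.6 after 72 h. The 24 h libraries overlapped those at 0 h, and both 72 h libraries lay above them. At 72 h it rose by 1.13 ± 0.22 (SE) on the log2 scale (adjusted p = 0.00501), and on the spike-in scale by 0.89, which was not called (adjusted p = 0.103). The 24 h difference was 0.55 (adjusted p = 0.0876), and with a block for the replicate pairs of each genotype it was called (adjusted p = 0.0249). It was also called without DKO 0 h replicate 2 (0.86, adjusted p = 0.0306) and without DKO 24 h replicate 1 (0.86, adjusted p = 0.0262), while without the other library of either pair it was 0.25 (adjusted p = 0.474 and 0.449).

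Sox4 (ENSMUSG00000076431.4, chr13:28948919-28953713, minus strand) is a SOXC group factor found in many progenitor cells. Like Otx2, it was called higher at WT 72 h and 144 h in deposited TPM, but unlike Otx2 it was not called at 24 h. WT libraries held 14.6 and 11.001 TPM before treatment, 23.2 and 15.3 after 24 h, 32.9 and 35.5 after 72 h and 31.1 and 36.4 after 144 h. All treated WT libraries lay above the 0 h pair, and 72 h and 144 h overlapped. The log2 fold change was 0.54 ± 0.21 (SE; adjusted p = 0.0688) at 24 h, 1.36 ± 0.21 (adjusted p = 0.00135) at 72 h and 1.34 ± 0.21 (adjusted p = 0.0013) at 144 h. The 24 h difference was called without WT 24 h replicate 2 (0.82, adjusted p = 0.0232) and without either DKO 24 h library (adjusted p = 0.0475 and 0.0479), and it was 0.25 without WT 24 h replicate 1 (adjusted p = 0.424). Spike-in normalized, it rose at 72 h (0.98, adjusted p = 0.0399), while at 144 h the difference was 0.37 (adjusted p = 0.279).

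DKO libraries held 15.4 and 16.3 TPM of Sox4 before treatment, 15.2 and 21.5 after 24 h and 25.6 and 25.8 after 72 h. The 72 h pair lay above every other DKO library, and its rise was 0.67 ± 0.21 (SE) on the log2 scale (adjusted p = 0.0346). That call was lost without any 1 of the DKO 0 h and 72 h libraries (adjusted p from 0.102 to 0.122) and on the spike-in scale (0.39, adjusted p = 0.487). Over the 14 libraries Otx2 and Sox4 correlated at r = 0.93 on the log2(TPM + 1) scale, the highest value among the pairs of the 8 genes. The points share the 7 groups and the total to which TPM are scaled.

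Pou3f1 (ENSMUSG00000090125.3, chr4:124656807-124660655, plus strand), also called OCT6, is a POU factor of the formative and primed epiblast and of neural cells. WT libraries held 4.19 and 5.21 TPM before treatment, 4.60 and 3.02 after 24 h, 12.6 and 7.81 after 72 h and 21.1 and 17.7 after 144 h. The 24 h libraries overlapped the 0 h pair, the 72 h libraries lay above both, and the 144 h libraries lay above all of them. The log2 fold change at 144 h was 1.84 ± 0.33 (SE; adjusted p = 0.0027), the largest of the 7 genes tested there, and it was called on the spike-in scale too (0.95, adjusted p = 0.0286). At 72 h it was 0.95 ± 0.33 (adjusted p = 0.0539), and with the replicate block it was called (adjusted p = 0.00823). It was also called there without either of the DKO 24 h libraries (adjusted p = 0.0285 and 0.029), with a pseudocount of 5 TPM (adjusted p = 0.0338) and with a filter at a mean of 5 TPM (adjusted p = 0.0499). Between 72 h and 144 h the difference was 0.89 (adjusted p = 0.348).

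DKO libraries held 2.22 and 3.30 TPM of Pou3f1 before treatment, 2.21 and 4.88 after 24 h and 2.90 and 4.64 after 72 h. These values overlapped at all 3 times, and none reached the lower WT library at 72 h. The DKO change at 72 h was 0.34 ± 0.33 (SE; adjusted p = 0.465).

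Fgf5 (ENSMUSG00000029337.2, chr5:98254184-98277030, plus strand) was below 1 TPM in every library except the 2 of WT 144 h. WT libraries held 0.243 and 0.669 TPM before treatment, 0.177 and 0.149 after 24 h, 0.601 and 0.432 after 72 h and 3.51 and 2.18 after 144 h. DKO libraries held 0.106 and 0.129 TPM before treatment, 0.0732 and 0.151 after 24 h and 0.265 and 0.290 after 72 h. In the limma fit with no filter on low values it rose at 144 h, by 1.39 ± 0.18 (SE) against 0 h (adjusted p = 0.00241). Against 72 h the rise was 1.32 ± 0.18 (adjusted p = 0.0363). Each SE pools the spread of all 7 groups, and on the log2(TPM + 1) scale the WT 0 h and 144 h pairs were the widest. The SE may therefore understate the error of both differences. In that fit 6.37% of 38890 genes were called higher at 144 h than at 0 h, and 0.147% higher than at 72 h. The ratio of means at 144 h to 0 h was 6.24 in deposited TPM and 3.09 in spike-in normalized TPM. Both ratios depend strongly on which WT 0 h library is used, as these held 0.243 and 0.669 TPM. TPM give no read counts, so the counting error behind such low values is unknown.

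Zic2 (ENSMUSG00000061524.8, chr14:122475435-122479852, plus strand), a zinc-finger factor that occupies enhancers in ES cells and acts in the early epiblast, moved late in deposited TPM. WT libraries held 28.2 and 30.5 TPM before treatment, 33.4 and 38.9 after 24 h, 34.5 and 39.7 after 72 h and 60.2 and 58.6 after 144 h. At 144 h both libraries lay above all other libraries of either genotype, and the log2 fold change against 0 h was 0.99 ± 0.18 (SE; adjusted p = 0.00269). Against 72 h it was 0.67 (adjusted p = 0.16). After spike-in normalization the 144 h change was -0.01 (adjusted p = 0.983), so the rise was one relative to the rest of the transcriptome. DKO libraries held 23.8 and 29.4 TPM before treatment, 31.3 and 22.0 after 24 h and 33.6 and 26.1 after 72 h, which overlapped throughout.

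Sox3 (ENSMUSG00000045179.9, chrX:60891366-60893430, minus strand) is a SOXB1 factor of the epiblast and neural progenitors. It was the 1 of the 7 genes tested called lower at WT 24 h, beside 15.7% of all genes tested. WT libraries held 4.96 and 2.87 TPM before treatment, 1.51 and 0.411 after 24 h, 4.46 and 2.34 after 72 h and 6.24 and 5.19 after 144 h. Both 24 h libraries lay below all other WT libraries. The log2 fold change at 24 h was -1.35 ± 0.37 (SE; adjusted p = 0.018) and -1.93 on the spike-in scale (adjusted p = 0.00501). The call in deposited TPM was lost without WT 0 h replicate 1 (-1.04, adjusted p = 0.116) and without WT 24 h replicate 2 (-0.94, adjusted p = 0.138), and with only the WT 0 h and 24 h groups in the fit (adjusted p = 0.0534). At 144 h the difference from 0 h was 0.48 (adjusted p = 0.353).

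DKO libraries held 2.65 and 3.71 TPM of Sox3 before treatment, 0.745 and 2.07 after 24 h and 2.94 and 3.92 after 72 h. Both 24 h libraries again lay below those of the other times. The change of -0.84 ± 0.37 (SE) was not called (adjusted p = 0.118), and it was called with the replicate block (adjusted p = 0.00838) and on the spike-in scale (-1.51, adjusted p = 0.0129). Leaving out 1 library moved the change in deposited TPM between -1.25 and -0.43.

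Foxd3 (ENSMUSG00000067261.4, chr4:99656299-99658622, plus strand), a forkhead factor needed for pluripotent cells and later for neural crest, was higher in every treated WT library than at 0 h, and whether it was called depended on the fit. WT libraries held 32.7 and 30.6 TPM before treatment, 62.98 and 43.8 after 24 h, 55.0 and 45.5 after 72 h and 47.4 and 43.0 after 144 h. The log2 differences were 0.71 ± 0.35 (SE; adjusted p = 0.147), 0.64 ± 0.35 (adjusted p = 0.203) and 0.50 ± 0.35 (adjusted p = 0.312). With the replicate block Foxd3 was called at 24 h (adjusted p = 0.0161) and 72 h (adjusted p = 0.0289), and at 24 h it was called without either DKO 24 h library (adjusted p = 0.0336 and 0.0338). With only the groups compared in the fit it was called at 24, 72 and 144 h (adjusted p = 0.0484, 0.0334 and 0.025). On the spike-in scale Foxd3 was not called at 24 h or 72 h, where its means were 1.28 and 1.19 of the 0 h mean. The 72 h libraries overlapped those of 0 h on that scale, and the sign turned at 144 h (-0.51, adjusted p = 0.136).

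DKO libraries held 19.4 and 30.4 TPM of Foxd3 before treatment, 27.9 and 68.7 after 24 h and 30.03 and 38.1 after 72 h. The DKO 24 h pair was the widest of all groups for this gene. Its difference from 0 h was 0.83 ± 0.35 (SE; adjusted p = 0.108), was called with the replicate block (adjusted p = 0.00992), and was decided by single libraries, at 1.46 without DKO 24 h replicate 1 (adjusted p = 0.00759) and 0.19 without DKO 24 h replicate 2 (adjusted p = 0.651).

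Utf1 (ENSMUSG00000047751.9, chr7:139943789-139945112, plus strand), a chromatin-associated factor of pluripotent cells, had the highest TPM of the 8 genes in every library and none of its changes in deposited TPM was called. WT libraries held 340.4 and 255 TPM before treatment, 389.5 and 274 after 24 h, 382 and 300.4 after 72 h and 367 and 359 after 144 h. DKO libraries held 279 and 374 TPM before treatment, 296 and 439 after 24 h and 289 and 331 after 72 h. Within each genotype the times overlapped except that both WT 144 h libraries lay above the WT 0 h pair, with a log2 difference of 0.30 ± 0.24 (SE; adjusted p = 0.367). Spike-in normalized Utf1 fell at 144 h (-0.73, adjusted p = 0.0282), by less than the median of all genes.

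Counted together in WT cells, 1 of the 7 genes tested was called higher at 24 h (Otx2) and 1 lower (Sox3), where 17.6% and 15.7% of all genes tested were called in these directions. At 72 h, 2 were called higher (Otx2 and Sox4) beside 14.4% of all genes, and at 144 h 4 were (Otx2, Pou3f1, Zic2 and Sox4) beside 17.4%. The median log2 fold change of the 7 was 0.29, 0.64 and 0.99 at the 3 times, and that of all genes tested was 0.00, 0.04 and 0.06. All 7 were above 0 at 144 h in deposited TPM, and 3 of them on the spike-in scale. On both scales all 7 exceeded the median of all genes there. Between 144 h and 72 h none of the 7 was called by limma, beside 0.428% of all genes, and 2 had an unadjusted p under 0.05.

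On the spike-in scale, fitted over 18232 genes, Sox3 was the 1 member called lower at 24 h beside 8.73% of genes. Otx2 and Sox4 were the 2 called higher at 72 h, beside 0.697% of genes. At 144 h Otx2 and Pou3f1 were called higher beside 0.461% of genes, and Utf1 lower beside 50.5%. With the replicate block, 2 members were called higher at 24 h (Otx2 and Foxd3) beside 21.5% of genes, and 4 at 72 h (Otx2, Pou3f1, Sox4 and Foxd3) beside 18.8%.

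In DKO cells none of the 7 was called at 24 h by limma, beside 28.2% of all genes tested, and 3 had an unadjusted p under 0.05. At 72 h 2 were called higher (Otx2 and Sox4) beside 18.8% of all genes tested. With the replicate block 2 were called higher at 24 h (Otx2 and Foxd3) and 1 lower (Sox3), beside 17.1% and 18.8% of genes. Spike-in normalized, 1 was called lower at 24 h (Sox3), beside 18.7% of genes, and none at 72 h, beside 3.66%, where 1 had an unadjusted p under 0.05. The median of the 7 at 72 h was 0.34 in DKO cells and that of all genes 0.13.

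**Figure D2:**
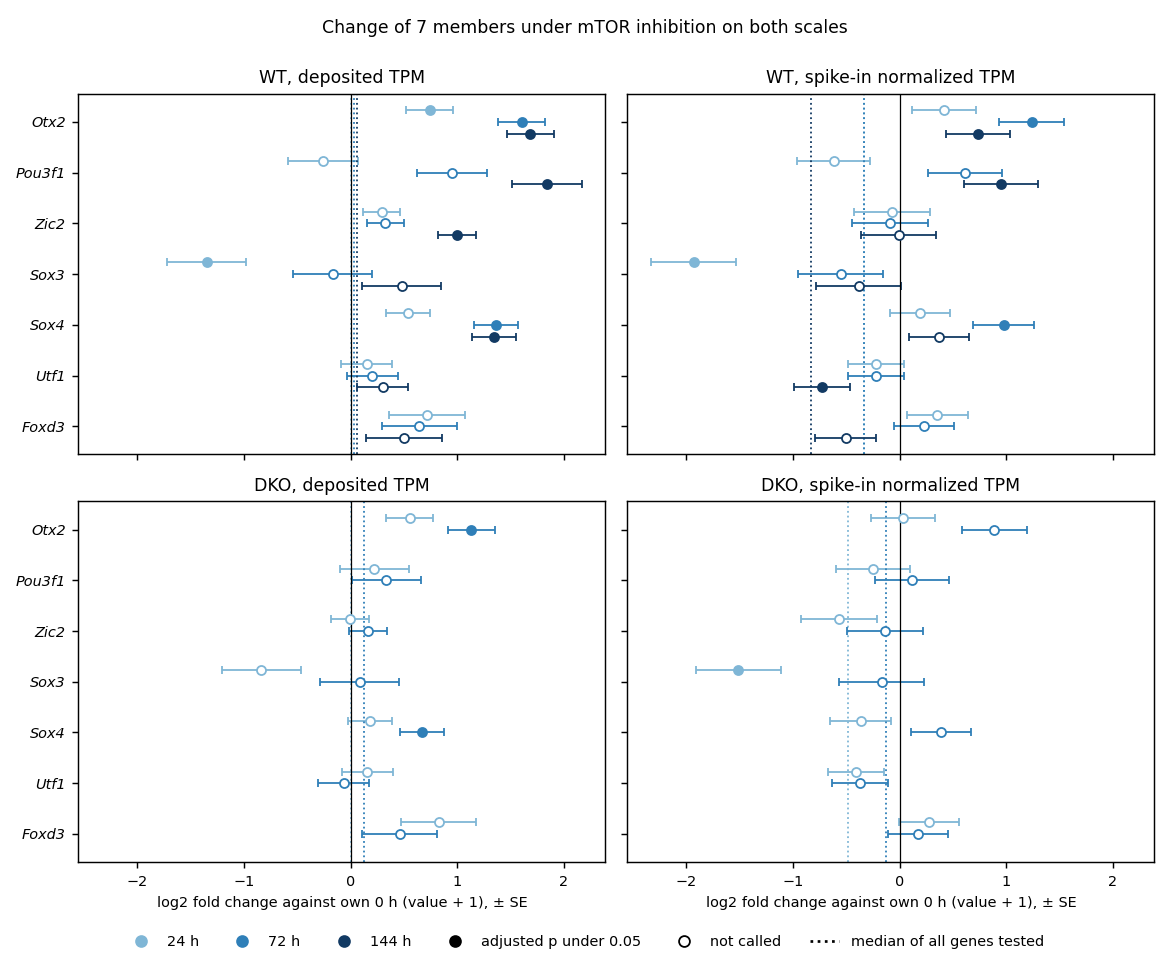
Log2 fold changes against the 0 h libraries of the same genotype (horizontal axes; log2 of the value + 1, bars ± SE) for the 7 genes tested, in WT (top) and DKO (bottom) cells, on deposited TPM (left) and spike-in normalized TPM (right). Filled points passed an adjusted p of 0.05 and dotted lines mark the median of all genes, which at WT 144 h lies at 0.06 on the left and at -0.83 on the right. Zic2 moves from 0.99 to -0.01 between the scales and Pou3f1 from 1.84 to 0.95.

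Primitive endoderm markers moved with the 24 h results. The 6 markers (Gata6, Gata4, Sox17, Sox7, Pdgfra and Dab2) were all called higher in WT cells at 24 h, beside 17.6% of all genes, and 3 of them (Gata6, Gata4 and Sox17) on the spike-in scale. Their summed level was 100.4 to 182 TPM there against 12.6 to 42.4 at 0 h and 12.9 to 13.8 at 144 h. In DKO cells at 24 h it was 29.8 to 70.6 TPM and none of the 6 was called, beside 28.2% of all genes. With the replicate block 1 of the 6 was called higher there, beside 17.1% of genes. The part of these markers in the results at 24 h was not tested. The 6 neural progenitor markers, a cell type that also uses Sox3, Sox4, Zic2 and Otx2, summed to 83.8 to 94.0 TPM in WT cells at 0 h, 32.2 to 35.1 at 24 h and 60.9 to 63.2 at 144 h, and most of that sum was Tubb3. At 144 h Tubb3 and Nes were called lower (-0.57 and -1.03, adjusted p = 0.0153 and 0.00203), as on the spike-in scale (-1.589 and -1.997), while Sox1 and Pax6 were not called, at 0.59 (adjusted p = 0.0678) and 0.33 (adjusted p = 0.413). Sox1, a defining SOXB1 factor of neural progenitors, was called higher at WT 72 h (0.95, adjusted p = 0.0106), from 1.37 and 2.24 TPM at 0 h to 4.27 and 4.43, while Nes and Tubb3 were called lower there (-1.40 and -0.52, adjusted p = 0.000545 and 0.0243). On the spike-in scale Sox1 was at 0.73 there (adjusted p = 0.19). Neurog2 was at 0 in both libraries of WT 72 h, WT 144 h and DKO 0 h. The 4 neural crest markers, a cell type that uses Foxd3, summed to between 2.20 and 4.31 TPM over all groups. The 1 of them tested, Tfap2a, rose in WT cells by 0.63, 0.70 and 0.92 at the 3 times (adjusted p = 0.0376, 0.0297 and 0.00822), and was not called on the spike-in scale. There Snai2 was tested as well and was called lower at WT 144 h (-0.82, adjusted p = 0.0376). Tfap2b was at 0 in every WT library.

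The 5 mesendoderm markers summed to between 4.53 and 9.97 TPM over all groups, and 3 were tested. Eomes, a T-box factor of mesendoderm, held 2.69 and 2.79 TPM in WT cells at 0 h and 5.84 and 6.23 at 144 h (log2 fold change 0.91, adjusted p = 0.00532), and on the spike-in scale the difference was 0.09 (adjusted p = 0.823). Foxa2, which endoderm also uses, was called higher at WT 24 h in deposited TPM (1.53, adjusted p = 0.00186) and on the spike-in scale (1.56, adjusted p = 0.0101). At WT 144 h it was at -0.59 (adjusted p = 0.119) and was called lower on the spike-in scale (-1.14, adjusted p = 0.0145). At DKO 72 h 2 of the 3 were called higher, beside 18.8% of all genes, and 1 on the spike-in scale. The 5 trophectoderm markers summed to 40.6 and 128 TPM in the WT 24 h libraries against 28.7 and 29.9 at 0 h. Of the 3 trophectoderm markers tested none was called there, and 2 were called higher with the replicate block. At WT 144 h the trophectoderm sum was 14.8 and 15.7 TPM, with 1 of the 3 called lower beside 12.7% of all genes, and on the spike-in scale 3 of 4 beside 50.5%. Between DKO and WT at 72 h, of the 4 neural progenitor markers tested Nes was called higher in DKO (6.21 and 6.91 TPM against 2.74 and 3.28, adjusted p = 0.0214) and Pax6 lower (1.01 and 1.05 against 3.13 and 3.83, adjusted p = 0.0481), and none was called on the spike-in scale. No mesendoderm, trophectoderm, primitive endoderm or neural crest marker tested was called in that comparison. The part of the neural, neural crest, mesendoderm and trophectoderm markers in the results was not tested.

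At matched times none of the 7 genes was called between DKO and WT cells by limma. At 0 h 0.812% of all genes tested were called, at 24 h 1.74% and at 72 h 5.21%. The members with an unadjusted p under 0.05 numbered 0, 1 and 1. At 0 h the Pou3f1 and Foxd3 libraries of DKO lay below those of WT and the Sox4 libraries above, with unadjusted 95% intervals of the fold from 0.397 to 1.08, from 0.450 to 1.34 and from 0.896 to 1.69. Of all genes tested, 16.3% had all DKO libraries below WT at 0 h and 25.6% above. Fgf5 was below WT there too, at 0.257 of the WT mean against 0.537 at 72 h. The WT mean at 0 h was that of 0.243 and 0.669 TPM. In the limma fit with no filter neither difference was called (adjusted p = 0.577 and 0.613). At 24 h only Zic2 among the 7 had libraries that did not overlap, all DKO below all WT (19.5% of all genes), and the unadjusted 95% interval of its fold was 0.561 to 0.965 (adjusted p = 0.249).

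At 72 h both DKO libraries lay below both WT libraries for Otx2, Pou3f1, Zic2, Sox4 and Foxd3. This is 5 of the 7 tested, where 15.5% of all genes tested did so. It held for Fgf5 too, which did not pass the filter. The largest difference was that of Pou3f1, at 12.6 and 7.81 TPM in WT against 2.90 and 4.64 in DKO cells. Its log2 fold change was -1.22 ± 0.33 (SE; adjusted p = 0.0591), a fold of 0.428 with an unadjusted 95% interval from 0.259 to 0.707. It was called with a pseudocount of 5 TPM and without either of the DKO 24 h libraries (adjusted p = 0.0365 and 0.0367), and on the spike-in scale it was -0.94 (adjusted p = 0.173). Otx2 was at 0.718 of WT (interval 0.512 to 1.01), Sox4 at 0.759 (0.553 to 1.04), Zic2 at 0.807 (0.615 to 1.06) and Foxd3 at 0.683 (0.396 to 1.18). On the spike-in scale the log2 differences of Otx2, Zic2, Sox4 and Foxd3 lay between -0.15 and 0.09, and their libraries overlapped.

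The 7 genes had a median log2 difference of -0.40 between DKO and WT at 72 h, beside 0.11 for all genes, and none of them exceeded the median of all genes on either scale. The spike-in scale gave medians of 0.00 and 0.49. The difference between the DKO and WT responses from 0 h to 72 h was not called for any member or for any other gene (0% of all genes), and neither was the one from 0 h to 24 h, while 577 and 620 genes had an unadjusted p under 0.05 at 72 h and 24 h. For the response to 72 h, the fold of DKO over WT was 0.617 for Sox4 (unadjusted 95% interval 0.395 to 0.965), 0.654 for Pou3f1 (0.322 to 1.33) and 0.721 for Otx2 (0.447 to 1.16). Utf1, Foxd3 and Zic2 were at 0.832, 0.880 and 0.891 and Sox3 at 1.19, all with intervals that include 1. The WT and DKO responses do not share libraries, but the difference of the responses and the difference at 72 h do.

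**Figure D3:**
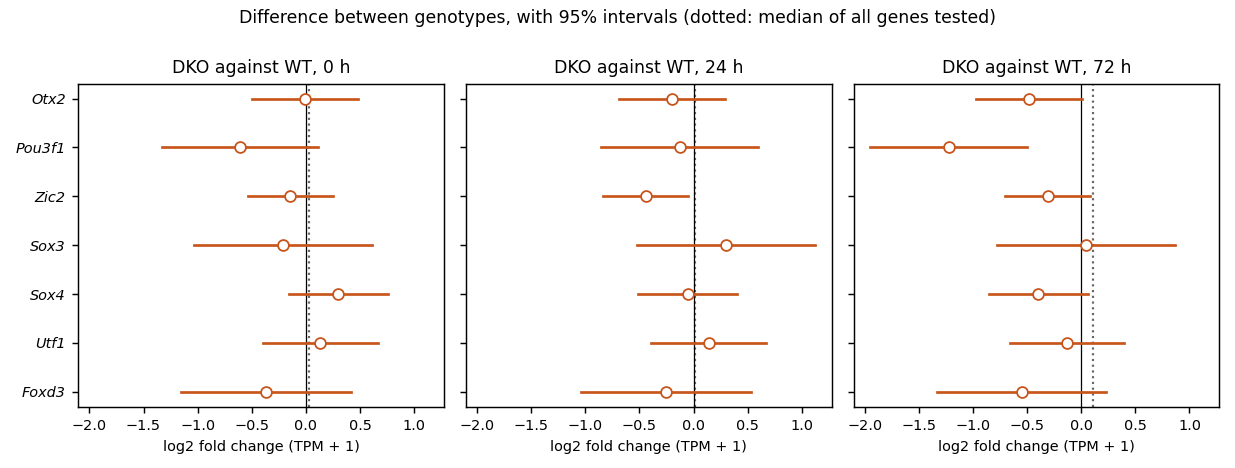
Log2 fold change of DKO against WT in deposited TPM (horizontal axes, log2 of TPM + 1) for the 7 genes tested at 0, 24 and 72 h, with unadjusted 95% intervals and a dotted line at the median of all genes tested. At 72 h the Pou3f1 point stands at -1.22, all 7 points lie to the left of the dotted line at 0.11, and the intervals of Otx2, Zic2, Sox3, Sox4, Utf1 and Foxd3 include 0.

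A list of 12 further formative and primed genes (Dnmt3a, Dnmt3b, Lef1, Tcf7l1, Tcf15, Etv4, Etv5, Zic5, Sall2, Cdh2, Grhl2 and Sfrp2) was measured beside the members, and all 12 passed the filter. In WT cells none was called higher and 5 lower at 24 h, beside 17.6% and 15.7% of all genes. At 72 h 3 were called higher and 1 lower, beside 14.4% and 12.8%. At 144 h 6 were called higher and 1 lower, beside 17.4% and 12.7%, with a median of 0.41. With the replicate block 6 were called lower at 24 h, beside 3098 of the 15878 genes tested. That block gave 4 higher and 2 lower at 72 h, beside 2991 and 2658 genes, and 7 higher and 1 lower at 144 h, beside 3501 and 2654. Lef1, the nuclear partner of beta-catenin in WNT signalling, held 14.03 to 15.01 TPM at 0 h and 60.2 to 63.6 at 144 h, and rose by 2.02 ± 0.21 (SE) on the log2 scale (adjusted p = 0.000237). Tcf15, a bHLH factor of cells primed to leave the naive state, rose by 1.51 (adjusted p = 0.00122), Grhl2, an epithelial factor that opens enhancers in epiblast cells, by 1.24 (adjusted p = 0.0023), and Sfrp2, a secreted WNT modulator, by 1.09 (adjusted p = 0.0137). Tcf7l1, a repressor of WNT targets, fell by 0.54 (adjusted p = 0.0046).

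On the spike-in scale none of the 12 was called higher at WT 24 h or 72 h, and 3 and 1 were called lower, beside 8.73% and 7.6% of all genes. There 1 of the 12 was called higher at 144 h (Lef1, 1.04, adjusted p = 0.0123) and 5 lower (Dnmt3a, Dnmt3b, Etv5, Sall2 and Tcf7l1), beside 0.461% and 50.5% of all genes, with a median of -0.47 beside -0.83 for all genes. Dnmt3a and Dnmt3b, which encode the de novo DNA methyltransferases, were at -1.23 (adjusted p = 0.00755) and -0.83 (adjusted p = 0.0233), the latter at the median of all genes.

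In DKO cells at 72 h 3 of the 12 were called higher (Cdh2, Lef1 and Tcf15) and 1 lower (Tcf7l1), beside 18.8% and 10.2% of all genes, and on the spike-in scale none was called in either direction, beside 3.66%. Between DKO and WT cells at 72 h none was called higher and 4 lower, beside 4.14% and 1.07% of all genes. Grhl2 held 12.7 to 17.01 TPM in DKO and 32.8 to 38.7 in WT cells (log2 fold change -1.22 ± 0.21, SE; adjusted p = 0.0163), and Lef1 15.7 to 23.4 against 31.0 to 49.9 (-0.9998, adjusted p = 0.0313). The differences of Tcf7l1 and Etv5, an ETS factor downstream of FGF signalling, were -0.49 (adjusted p = 0.0338) and -0.46 (adjusted p = 0.0215). None of the 12 was called between the genotypes on the spike-in scale at 72 h.

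**Figure D4:**
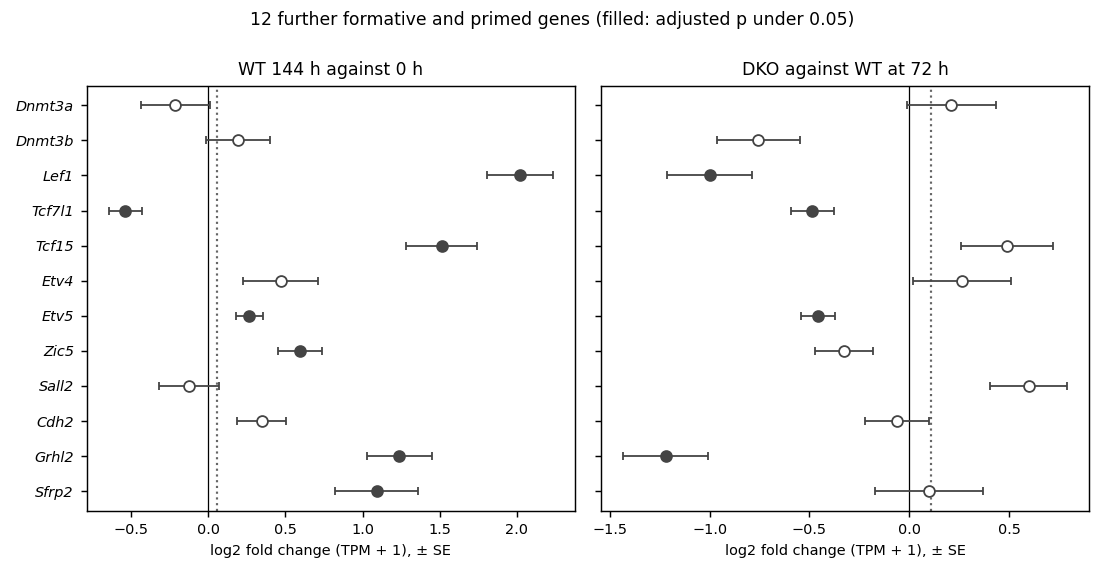
Log2 fold changes (horizontal axes, log2 of TPM + 1, bars ± SE) of the 12 further formative and primed genes in deposited TPM, at WT 144 h against 0 h (left) and DKO against WT at 72 h (right), with filled points for an adjusted p below 0.05 and a dotted line at the median of all genes. Lef1 stands at 2.02 on the left and at -0.9998 on the right, and Grhl2 at 1.24 and -1.22.

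The genes whose pattern was most like that of each member were found by Pearson's r over the 14 libraries among the genes tested, as a description. Pik3r1, Dopey2 and Grk6 lay nearest to Otx2 (r = 0.96 for each), and Gm34939, Klf13 and Snn to Sox4 (0.95 to 0.96). Enpp2, Grhl2 and Dnah8 lay nearest to Pou3f1 (0.95 to 0.96), Gbp2, Gcat and Stard13 to Fgf5 (0.92 to 0.95), and Emc10, Porcn and Clk2 to Zic2 (0.91 to 0.93). For Sox3 they were Cdca7l, Msantd3 and A2m (0.95 to 0.98), for Utf1 Sept1, Arl6ip4 and Tns3 (0.89 to 0.93), and for Foxd3 Supt6, Spindoc and Mut (0.94 to 0.96). All these values rest on the same 7 groups.

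Some members share their position with other annotated genes, and whether the counting used strand is not given in the sources used here. Genes on the opposite strand overlap Otx2 (Otx2os1), Pou3f1 (Gm2164) and Sox4 (Gm26735), and reached at most 0.497, 0.858 and 1.73 TPM in any library. On the same strand Gm49154 overlaps Otx2 (at most 0.175 TPM) and Gm23366 overlaps Foxd3 (at most 0.000165 TPM). Fgf5, Zic2, Sox3 and Utf1 overlap no other gene in the files.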

How the data were processed

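RNA-seq of 14 libraries in 7 groups was analysed. Per the submitters' processing notes, reads were trimmed with cutadapt 2.4, aligned to mm10 with STAR 2.7.3a and quantified with StringTie 2.0. The deposited values are TPM per gene, and entries of 1 gene identifier were summed. TPM keep no read counts, so the depth is unknown and no counting error is given. Groups were taken from the sample labels. The spike-in scale multiplied the TPM of each library by the median ratio of the part of the authors' spike-in normalized table at hand to the deposited TPM. The study's own test works on read counts, which TPM do not give, so a test on the log scale was used.

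Here log2(TPM + 1) was fitted with limma 3.58.1 (R 4.3.3; a mean-variance trend, all 7 groups in 1 fit, no block) for 11 comparisons, with Benjamini-Hochberg adjustment over the 15878 genes whose mean reached 1 TPM. The fit was tested on simulated data. Intervals are unadjusted. The study calls its replicates biological and its experiments independently repeated, and p-values measure the spread between these libraries.

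Per the reporting summary of the study, time points of 1 biological replicate were handled in parallel, so numbers pair libraries within a genotype. Replicate differences correlated at 0.07 to 0.46 in the 6 pairs of WT groups and at 0.25 to 0.41 in the 3 of DKO groups. The named genes are the 8 members, the 3 genes most correlated with each, and, from other lists, called genes at WT 144 h or between genotypes at 72 h, at most 4 with the largest changes. The genes named beyond that rule where a count was 5 or fewer were chosen after their values were seen. The members and lists were chosen with earlier results of these data known. A gene of these lists is not reported here. Alternatives tried were the spike-in scale, centring on the median, pseudocounts of 0.1 and 5 TPM, no filter or a mean of 5 TPM, replicate blocks, only the groups compared, no trend, and leaving out each library.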

Additional observations from a re-analysis of the deposited data

How the results depend on the processing

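The number of members called at WT 144 h against 0 h was 4 and lay between 3 and 5 under every alternative. These counts do not separate the directions. On the spike-in scale the 3 were Otx2 and Pou3f1, called higher, and Utf1, called lower, beside 0.461% and 50.5% of genes. Zic2 and Sox4 were not called on that scale. No member was called between the genotypes at 0 h or 24 h, or in the difference of their responses, under any alternative. At WT 24 h (2 called) the number was 1 on the spike-in scale, with values centred on each library's median and with a filter at a mean of 5 TPM. With no filter it was 0. At DKO 72 h (2 called) it was 0 on the spike-in scale and 1 with centring or no filter. At DKO 24 h (0 called) it was 1 on the spike-in scale. Between DKO and WT at 72 h (0 called) it was 1 with a pseudocount of 5 TPM (Pou3f1), and between WT 144 h and 72 h (0 called) 1 with no filter (Fgf5). At WT 72 h (2 called) it was 3 with a pseudocount of 5 TPM or a filter at a mean of 5 TPM (Pou3f1 added) and with only the groups compared (Foxd3 added). With only the groups compared Foxd3 was also called at WT 24 h and 144 h, and Sox3 at 24 h was not.

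The replicate block within each genotype gave 3 called at WT 24 h, 4 at WT 72 h and 3 at DKO 24 h, and changed no other call of a member within a genotype. A block across all libraries moved none of the 11 counts. Between genotypes 10 of 12 replicate correlations were below 0, and with the DKO numbers crossed, a block added after the data were seen, 4 were called at WT 24 h, 3 at WT 72 h, 2 at DKO 24 h and 1 between DKO and WT at 72 h.

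Leaving out 1 library gave 1 to 4 called at WT 24 h, with 4 without either DKO 24 h library and 1 without any 1 of the WT 0 h and 24 h libraries. It gave 2 to 3 at WT 72 h (3 without either DKO 24 h library), 0 to 2 at DKO 24 h (1 without DKO 0 h replicate 2 and 2 without DKO 24 h replicate 1), 1 to 2 at DKO 72 h and 0 to 1 between DKO and WT at 72 h. Of the 31 fold changes of members recomputed, 6 reversed on the spike-in scale and none under another alternative. At WT 144 h Zic2 was -0.010, Sox3 -0.38, Utf1 -0.73 and Foxd3 -0.51, and between DKO and WT at 72 h Zic2 was 0.095 and Sox4 0.0039. The spike-in scale multiplies all genes of a library by 1 factor, which by construction sets the shift. Groups of 2 and unknown depth limit what could be called.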

Other observations

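Relatives of the members and naive genes were measured beside them. The lists overlap, so their counts are not of separate genes. Zic5 is also among the further formative and primed genes, and Sox2 and Pou5f1 are among both the relatives and the naive and core genes. Of 13 relatives, 7 passed the filter, and at WT 144 h 4 were called higher and none lower in deposited TPM, beside 17.4% and 12.7% of all genes tested. They were Sox11 (log2 fold change 1.40 ± 0.24, SE; adjusted p = 0.00245), Sox12 (0.99, adjusted p = 0.00113), which with Sox4 form the SOXC group, Sox2 (0.64, adjusted p = 0.00207) and Zic5 (0.59, adjusted p = 0.0121). None of the 7 was called higher after spike-in normalization, and 2 were called lower, beside 50.5% of all genes, Pou5f1 (-1.02, adjusted p = 0.00572) and Fgf4 (-1.09, adjusted p = 0.00783). Between DKO and WT at 72 h 1 relative was called, Fgf4, the FGF ligand of ES cells, which was lower in DKO (-0.86, adjusted p = 0.00877), and none was on the spike-in scale.

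Of 12 naive and core pluripotency genes, 6 were called higher and none lower at WT 24 h, beside 17.6% and 15.7% of all genes tested, and on the spike-in scale none was called in either direction, beside 9.98%. At WT 144 h 3 were called higher (Klf4 by 1.39, Sox2 by 0.64 and Klf5 by 0.54) and 1 lower (Nanog, -0.61, adjusted p = 0.0396), beside the same 17.4% and 12.7%. With the replicate block 6 were called higher at that time and 1 lower, beside 3501 and 2654 of the 15878 genes tested. On the spike-in scale none was called higher there and 6 lower, beside 0.461% and 50.5% of all genes. Between DKO and WT at 72 h 1 was called, Nr0b1, lower in DKO (-0.94, adjusted p = 0.0388), and none was on the spike-in scale.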
